A study of Mus musculus with 26 samples.

Results

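The genes described here encode the protein parts of the chylomicron (CM) and the proteins that bring fatty acid and cholesterol into the enterocyte. They are the apolipoproteins *Apoa1*, *Apoa4*, *Apob*, *Apoc2* and *Apoc3*, the lipid transfer protein *Mttp*, the fatty acid binding proteins *Fabp1* and *Fabp2*, and the uptake receptors *Cd36* and *Scarb1*. They were taken by symbol from a table of 55487 genes, in which each of the 10 had 1 row, and all 10 passed the filter on low counts in every comparison. RNA-seq had been performed on a piece of the proximal small intestine (SI), taken just after the stomach, from mice with an inducible, intestinal epithelial deletion of 1 gene (knockout) and from littermate controls. Both genotypes were C57BL/6N mice of 8 to 12 weeks that carried the floxed gene on both alleles, ate standard chow and received 5 daily injections of tamoxifen, and the knockout mice also carried the Villin-creERT2 transgene, in which the villin promoter drives an inducible Cre in intestinal epithelial cells. Mice were killed 3 days after the last injection (7 knockout and 7 control mice) or 7 days after it (6 and 6), and each library came from 1 mouse. Nothing in the sources used here describes litters or batches per mouse. The p-values weigh differences against the spread between these mice and cannot account for litter or batch.

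Enterocytes take up fatty acid from the lumen, bind it in the cytosol, re-esterify it and pack the triglyceride into CMs, which leave through the lymph. In the endoplasmic reticulum, MTTP loads lipid onto the newly made APOB, the scaffold of the particle, and APOA4, APOA1, APOC2 and APOC3 join its surface. The absorptive cells of the proximal SI are known for high levels of these transcripts, several of which are otherwise made mainly by the liver.

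The genes *Apoa1*, *Apoc3* and *Apoa4* lie side by side on chromosome 9 within 14880 bases (GRCm38, GENCODE M21). *Apoa1* is at chr9:46228580-46230466 on the plus strand, *Apoc3* at chr9:46232933-46235636 on the minus strand and *Apoa4* at chr9:46240696-46243459 on the plus strand. The other genes are dispersed, with *Fabp2* at chr3:122895072-122899506 (plus), *Mttp* at chr3:138089854-138144968 (minus), *Cd36* at chr5:17781690-17888801 (minus), *Scarb1* at chr5:125277087-125341094 (minus), *Fabp1* at chr6:71199827-71205023 (plus), *Apoc2* at chr7:19671579-19677941 (minus) and *Apob* at chr12:7977648-8016835 (plus). Reads that fell on exons shared by genes had been counted as fractions, and no strand option is given in the sources used here. Exons of *Apoc2* overlap those of *Gm44805*, whose counts equalled those of *Apoc2* to within 2 counts in every library, so a read there was split and the *Apoc2* value is a part of the reads at this locus. Exons of *Apoa4* overlap the antisense gene *Gm10680*, which held between 0.655 and 0.779 of the *Apoa4* count in each of the 26 libraries. *Mttp* overlaps *Trmt10a* on the other strand, which held between 0.00999 and 0.232 of its count. Levels of different genes were therefore not ranked against each other, and each gene was compared with itself between groups.

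The stretch before the start is shown for 4 genes that contrast in the results, because *Fabp2* and *Apoa1* had much lower counts in knockout mice 7 days after tamoxifen, whereas *Fabp1* and *Apoc2* did not pass the test there. Of the 10 genes, 8 were matched to RefSeq promoters (GRCm38.p6), and the other two are *Apoc3* and *Scarb1*. The sequences run 5′ to 3′ on the strand of the gene. They cover *Fabp2* at chr3:122894822-122895071, *Apoa1* at chr9:46228380-46228579, *Fabp1* at chr6:71199629-71199826 and *Apoc2* at chr7:19677942-19678191, and stop before the first base of the GENCODE gene model. Capitals mark the letters of an HNF1 half-site, a motif read by HNF1 transcription factors of gut and liver.
Fabp2: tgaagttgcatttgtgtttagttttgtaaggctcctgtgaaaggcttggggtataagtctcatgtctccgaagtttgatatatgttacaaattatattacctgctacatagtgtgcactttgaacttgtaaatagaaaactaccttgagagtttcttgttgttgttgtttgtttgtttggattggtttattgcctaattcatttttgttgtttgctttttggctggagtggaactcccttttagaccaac
Apoa1: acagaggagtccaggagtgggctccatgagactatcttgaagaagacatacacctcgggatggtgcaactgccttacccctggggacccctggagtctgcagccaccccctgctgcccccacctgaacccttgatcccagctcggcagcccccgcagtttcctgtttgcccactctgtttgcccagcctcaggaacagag
Fabp1: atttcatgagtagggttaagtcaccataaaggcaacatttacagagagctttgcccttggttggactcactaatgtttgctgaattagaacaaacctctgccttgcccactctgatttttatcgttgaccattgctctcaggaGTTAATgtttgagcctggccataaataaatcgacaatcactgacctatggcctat
Apoc2: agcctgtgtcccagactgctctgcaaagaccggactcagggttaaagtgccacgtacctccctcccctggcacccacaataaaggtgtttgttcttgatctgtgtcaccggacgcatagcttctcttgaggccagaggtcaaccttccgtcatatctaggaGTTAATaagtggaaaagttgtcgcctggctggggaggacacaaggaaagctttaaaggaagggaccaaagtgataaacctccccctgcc
In the 250 bases before the RefSeq start, searched on both strands, GTTAAT (the HNF1 half-site) was found in *Apoc2* and *Fabp1* and in 6.44% of 32817 promoters. *Cd36*, which was searched and likewise did not pass at 7 days, had no GTTAAT. A link between the half-site and the results was not tested. TATAAA, the core element near many starts, was found in *Apob* and *Fabp1* and in 12.4% of all promoters. The *Fabp1* match lies 30 to 25 bases before the RefSeq start, which is beyond the end of the stretch shown. No letters of CAAAGTCCA (HNF4-type, 0.384% of all promoters), CAAAGGTCA (a nuclear receptor direct repeat, 0.427%), AGATAA (read by zinc finger factors of the gut, 9.99%) or TGATGCAA (an ATF4 element, 0.792%) were found in these windows of the 8 genes. CAAAGTCCA and CAAAGGTCA share their first letters, and no matches of different motifs overlapped.

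The libraries held between 3720114 and 6337900 counts, and levels are given as counts scaled to the library total (CPM, counts per 1000000). The piece of intestine differed between libraries. In 3 libraries, summed stomach epithelium markers exceeded 10000 CPM (knockout replicate 1 and control replicate 5 of day 3, control replicate 2 of day 7, called stomach-rich below), while the others had at most 2898 CPM. Pancreatic acinar markers exceeded 10000 CPM in 4 other libraries. In both stomach-rich libraries of day 3, the 12 absorptive enterocyte markers, such as *Alpi*, *Sis* and *Lct*, summed to the lowest value of their group (485 CPM in the knockout and 788 CPM in the control library). The tests and correlations that changed without these libraries are given with and without them.

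At 3 days, levels of the apolipoproteins, *Mttp* and both fatty acid binding proteins spread widely between mice of each genotype, and none of the 10 genes passed the test between genotypes (edgeR quasi-likelihood test, Benjamini-Hochberg adjusted p under 0.05), beside 1.43% of all 20760 genes tested. DESeq2's Wald test also called 0 of 10, and the edgeR p without adjustment was under 0.05 for 3 (*Apoa4*, *Apoc2* and *Fabp1*). *Fabp1*, the cytosolic fatty acid binding protein shared with the liver, lay between 111 and 3565 CPM in knockout mice (median 1268) and between 86.3 and 1101 CPM in control mice (median 539.6), with a log2 fold change of 1.78 (SE 0.56, adjusted p = 0.144). *Apoc2*, the activator of lipoprotein lipase, lay between 10.9 and 588 CPM (median 231) against 6.99 to 218 CPM (median 71.3), with a log2 fold change of 1.93 (SE 0.68, adjusted p = 0.202). *Apoa4*, which is made on fat absorption, lay between 18.3 and 3055 CPM (median 1091) against 15.1 to 1167 CPM (median 249.6), with a log2 fold change of 1.90 (SE 0.82, adjusted p = 0.313). All 3 medians were higher in knockout mice, and the groups overlapped.

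The lowest value in each of these 6 groups belonged to a stomach-rich library. Without the stomach-rich libraries, chosen after the data had been seen, *Fabp1* (log2 fold change 1.81, adjusted p = 0.0086) and *Apoc2* (1.94, adjusted p = 0.0303) passed and *Apoa4* did not (adjusted p = 0.0714). Every remaining knockout mouse then had at least 1227 CPM of *Fabp1*, above the highest control mouse. Across all 24 alternatives, the adjusted p lay between 0.0086 and 0.345 for *Fabp1* and between 0.0303 and 0.428 for *Apoc2*. The other 5 of the apolipoprotein, transfer and binding genes (*Apoa1*, *Apob*, *Apoc3*, *Mttp*, *Fabp2*) had log2 fold changes between 0.13 and 0.77, *Cd36* had -0.20 and *Scarb1* had -0.43, and their adjusted p lay between 0.406 and 0.943. The summed absorptive enterocyte markers spread like these genes, from 485 to 5688 CPM in knockout and from 788 to 6936 CPM in control mice, and 0 of the 12 markers passed.

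**Figure D1:**
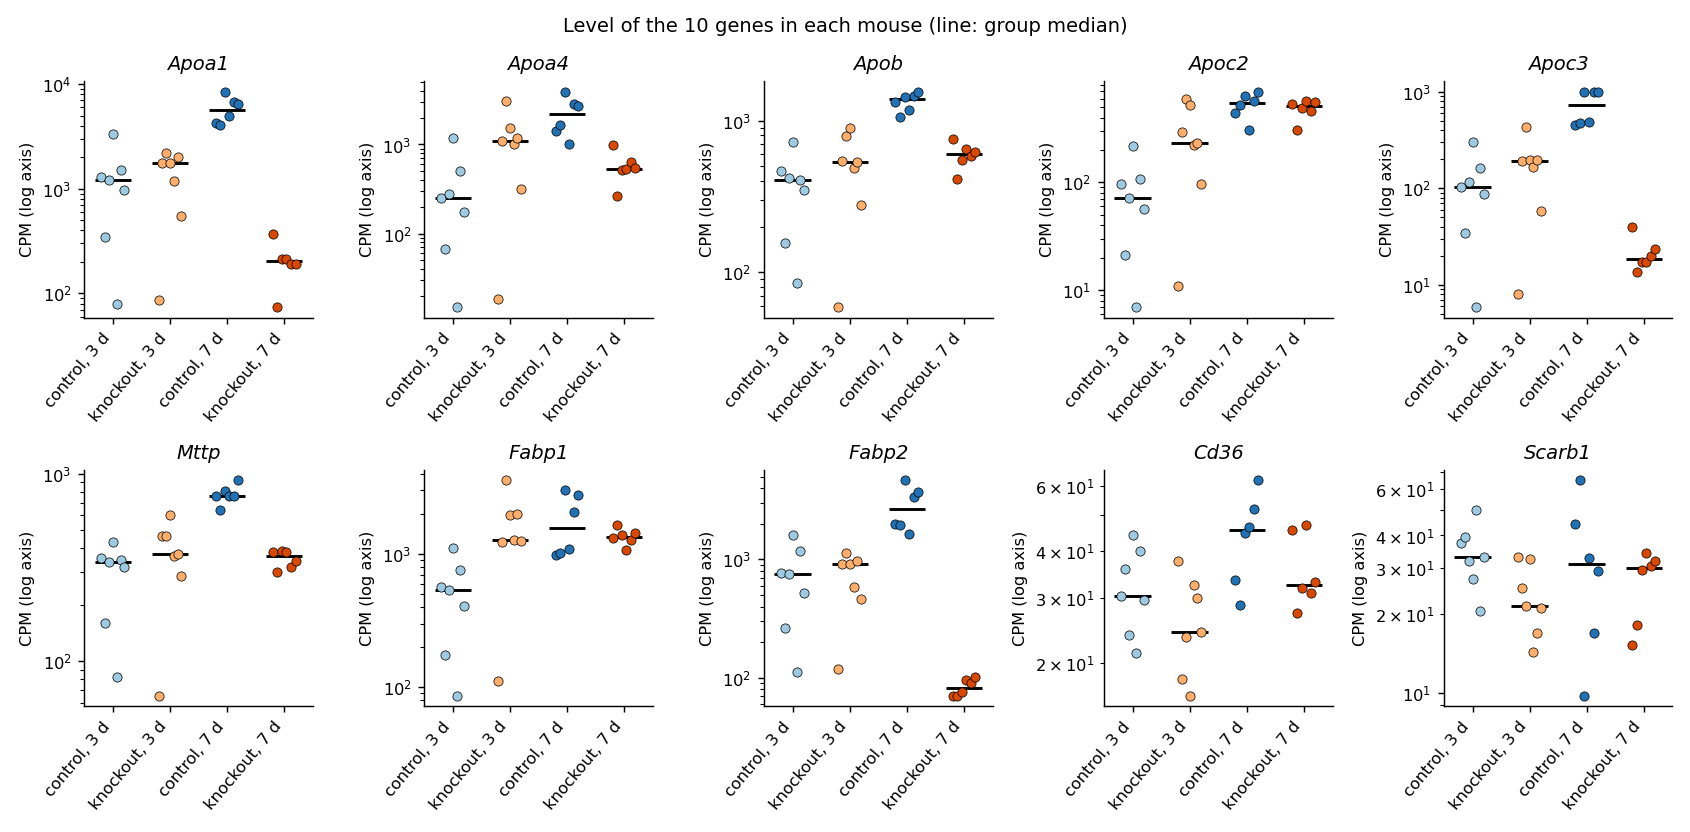
Levels of the 10 genes in single mice, in CPM on a log axis, by genotype and day after the last tamoxifen injection (points: mice, lines: group medians, 7 mice per group at 3 days and 6 at 7 days). At 7 days the knockout points of *Apoa1*, *Apoc3* and *Fabp2* lie far below all control points, those of *Apoa4*, *Apob* and *Mttp* lie below them by less, and those of *Apoc2*, *Fabp1*, *Cd36* and *Scarb1* overlap.

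At 7 days, 6 of the 10 genes were lower in knockout mice and none was higher, beside 18.8% of all genes called lower and 38.5% called in either direction. The 6 fell into a group that was 27.6-fold to 34.04-fold lower (*Apoa1*, *Apoc3*, *Fabp2*) and a group that was 2.16-fold to 3.85-fold lower (*Apoa4*, *Apob*, *Mttp*). In CPM, the genotypes did not overlap for any of them. On the log2 CPM scale with TMM factors, *Apoa4* did overlap (10.19 in knockout replicate 1 and 10.03 in control replicate 4). The share of all genes without overlap was not counted. The median log2 fold change over the 10 genes was -1.13, against -0.02 over all genes tested. A fall or rise at 7 days is that of knockout against control mice of this day, not a change over time.

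Among the apolipoproteins, *Apoa1*, the main protein of high-density lipoprotein and a surface protein of the CM, lay between 74.2 and 368 CPM in knockout mice (median 201.7) and between 4042 and 8431 CPM in control mice (median 5708). It fell by 4.78 on the log2 scale (SE 0.33, adjusted p = 1.5e-09). *Apoc3*, an inhibitor of triglyceride clearance, lay between 13.5 and 39.4 CPM (median 18.5) against 448 to 1000.2 CPM (median 738), and fell by 5.06 on the log2 scale (SE 0.33, adjusted p = 7.3e-10). For both genes every knockout mouse was far below every control mouse. *Apoa4* lies next to them on chromosome 9, with 262 to 994 CPM (median 537.6) against 1009 to 3899 CPM (median 2186), and fell by 1.94 (SE 0.33, adjusted p = 0.000102). In CPM, the highest knockout mouse was just below the lowest control mouse, which did not hold with TMM factors. *Apob*, the scaffold, lay between 409.9 and 755 CPM (median 600.0) against 1048 to 1548 CPM (median 1383.5), and fell by 1.14 (SE 0.15, adjusted p = 5.5e-06). *Apoc2* lay between 303 and 571 CPM (median 511) against 307 to 693 CPM (median 546.5), with a log2 fold change of -0.10 (SE 0.19, adjusted p = 0.741). Its ranges almost coincided.

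*Mttp*, the transfer protein, lay between 299 and 388 CPM in knockout mice (median 362) and between 639 and 919 CPM in control mice (median 763), and fell by 1.11 on the log2 scale (SE 0.12, adjusted p = 4.4e-07). The fatty acid binding proteins diverged. *Fabp2*, the form that is restricted to the intestine, lay between 70.8 and 102 CPM (median 82.8) against 1640.1 to 4630.0 CPM (median 2653.5), and fell by 5.09 (SE 0.27, adjusted p = 6.1e-11). *Fabp1* lay between 1072 and 1638 CPM (median 1353) against 978 to 3035 CPM (median 1578), with a log2 fold change of -0.43 (SE 0.26, adjusted p = 0.22). The knockout mice lay within the range of the controls. The uptake receptors did not pass. *Cd36*, a fatty acid receptor also found on endothelium and adipocytes, lay between 27.3 and 46.9 CPM (median 32.4) against 28.7 to 62.0 CPM (median 45.6), with a log2 fold change of -0.29 (SE 0.18, adjusted p = 0.237). *Scarb1*, the receptor of high-density lipoprotein, lay between 15.2 and 34.4 CPM (median 30.01) against 9.75 to 64.9 CPM (median 31.1), with a log2 fold change of -0.26 (SE 0.31, adjusted p = 0.561). With the pancreatic and stomach scores as covariates, *Fabp1* (-0.71, adjusted p = 0.00825) and *Cd36* (-0.43, adjusted p = 0.0468) passed, and the *Scarb1* estimate changed sign (0.37, adjusted p = 0.2). Over all 22 alternatives the adjusted p lay between 0.00825 and 0.565 for *Fabp1* and between 0.0258 and 0.455 for *Cd36*.

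**Figure D2:**
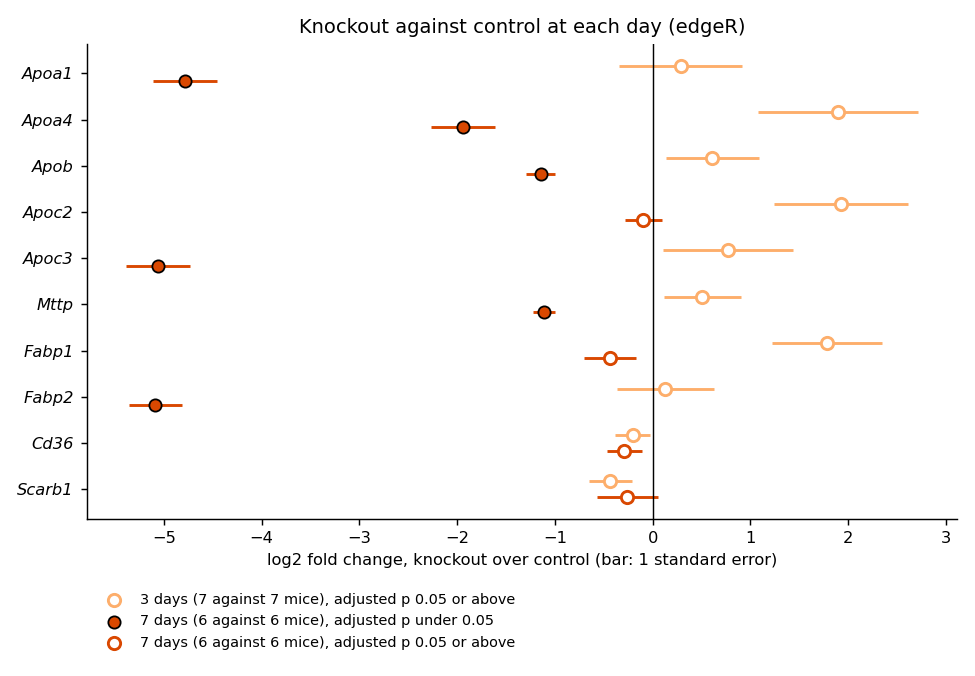
Log2 fold changes of the 10 genes between knockout and control mice at 3 days and 7 days (points: edgeR estimates, bars: 1 standard error, filled: adjusted p under 0.05). No gene is filled at 3 days, and at 7 days the 6 filled genes run from -1.11 for *Mttp* to -5.09 for *Fabp2*.

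Other cell types moved between the genotypes at 7 days, when 19.7% of all genes were called higher and 18.8% lower. All 12 absorptive enterocyte markers were lower in knockout mice (median log2 fold change -3.16), and their sum lay between 1883 and 3645 CPM against 8770 and 13350 CPM in controls, and none of the 12 was at 0 in any library. The 8 markers of the whole epithelium, such as *Epcam* and *Cdh1*, summed to 3915 to 4370 CPM against 4481 to 5572 CPM, with 4 lower and 2 higher. Endothelial markers summed to 145 to 217 CPM against 69.8 to 103 CPM (6 of 7 higher), adipocyte markers to 98.9 to 147 CPM against 27.4 to 55.1 CPM (2 of 4 tested higher) and leukocyte markers to 256 to 487 CPM against 539 to 1294 CPM (2 higher and 2 lower of 7 tested). Smooth muscle markers (727 to 1058 CPM against 647 to 1150 CPM) had 0 of 8 called. The 9 hepatocyte markers, which matter here because the liver makes several of these apolipoproteins, summed to at most 5.88 CPM in any library of day 7. In bulk tissue, fewer enterocytes and less RNA per enterocyte cannot be told apart, and the part of these cell types in the values of the 10 genes was not tested.

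Set against the enterocyte markers of the same library, the genes lay on either side of the controls at 7 days. Per 1000 CPM of the summed enterocyte markers, *Apoa1* was at 39.4 to 140.0 CPM in knockout mice and 449 to 632 CPM in control mice, *Apoc3* at 4.73 to 15.0 against 47.2 to 93.5 CPM, and *Fabp2* at 20.7 to 37.6 against 185 to 351 CPM. *Apoc2* was at 134 to 202 against 34.6 to 65.2 CPM, *Fabp1* at 366 to 869.9 against 103 to 263 CPM, *Apob* at 152 to 287 against 108 to 146 CPM, and *Mttp* at 97.7 to 159 against 60.5 to 86.5 CPM. The first 3 genes were below the controls on this scale and the latter 4 above them, without overlap. *Cd36* was also above them (8.74 to 17.4 against 3.27 to 5.83 CPM), whereas *Apoa4* (139 to 378 against 114 to 292 CPM) and *Scarb1* (5.79 to 11.7 against 0.73 to 7.40 CPM) overlapped. This scale was chosen after the data had been seen and was given no test. Its divisor, the sum of the markers, was itself lower in knockout mice (1883 to 3645 CPM) than in control mice (8770 to 13350 CPM). A gene that differed less than this sum therefore tends to lie above the controls here, as did *Apob* and *Mttp*, which were lower in CPM. The share of all genes on either side was not counted.

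**Figure D3:**
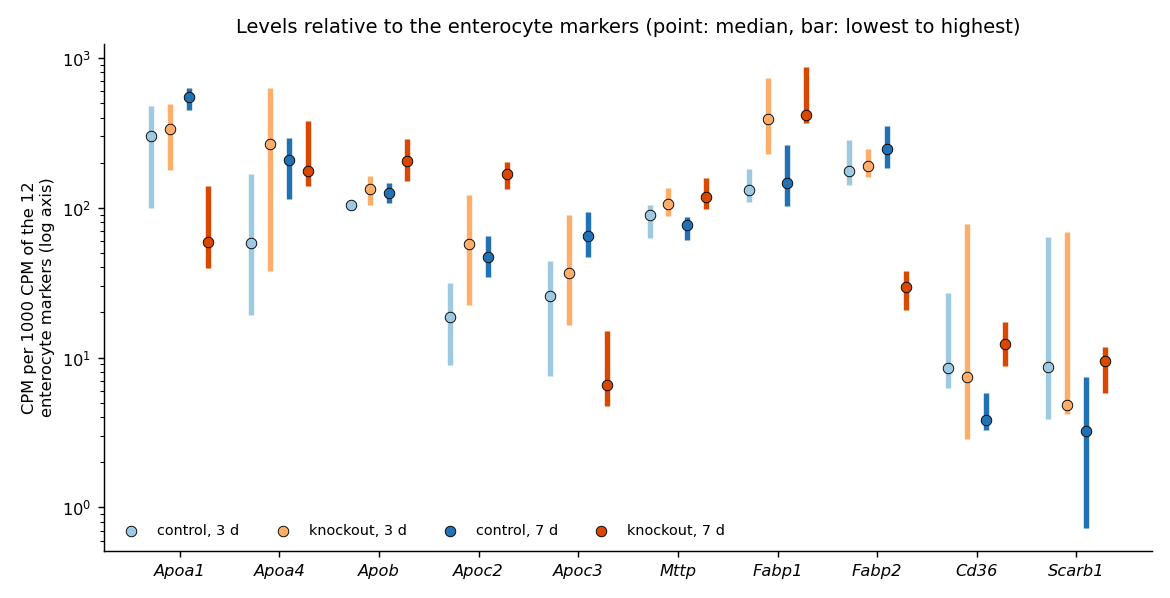
Level of each gene per 1000 CPM of the summed 12 absorptive enterocyte markers of the same library, on a log axis (points: group medians, bars: lowest to highest mouse, 7 mice per group at 3 days and 6 at 7 days). At 7 days the knockout bars of *Apoa1*, *Apoc3* and *Fabp2* lie below those of the controls and the knockout bars of *Apob*, *Apoc2*, *Mttp*, *Fabp1* and *Cd36* lie above them.

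The effect of the knockout differed between the days for 7 of the 10 genes (interaction term of edgeR over all 26 libraries). In all 7 the log2 fold change of knockout against control was more negative at 7 days. Of all 19604 genes, 18.4% were called and 9.74% called in this direction. The change was -5.82 for *Apoc3* (SE 0.88, adjusted p = 2.0e-05), -5.21 for *Fabp2* (SE 0.65, adjusted p = 1.2e-06), -5.06 for *Apoa1* (SE 0.83, adjusted p = 5.7e-05) and -3.83 for *Apoa4* (SE 1.01, adjusted p = 0.00725), in log2 units. It was -2.21 for *Fabp1* (adjusted p = 0.0254), -1.74 for *Apob* (adjusted p = 0.0313) and -1.602 for *Mttp* (adjusted p = 0.0139). *Apoc2* (-2.01, adjusted p = 0.0787), *Cd36* (-0.07, adjusted p = 0.906) and *Scarb1* (0.20, adjusted p = 0.805) did not pass. The call of *Apob* was lost when knockout replicate 3 or 4 of day 3, knockout replicate 2 of day 7 or control replicate 5 of day 7 was left out (adjusted p of 0.0502 to 0.0619), and that of *Fabp1* without knockout replicate 3 of day 3 or control replicate 3 of day 7 (0.0543 and 0.0551). *Apoc2* passed without knockout replicate 1 (-2.22, adjusted p = 0.0142) or control replicate 4 of day 3 (-2.45, adjusted p = 0.0266).

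In control mice, 9 of the 10 genes were higher at 7 days than at 3 days, beside 36.0% of all genes called and 19.7% called higher. *Apoa4* (log2 difference 3.09, SE 0.67), *Apoc2* (3.06, SE 0.51) and *Apoc3* (3.06, SE 0.56) differed most, followed by *Apoa1* (2.62, SE 0.53), *Fabp2* (2.36, SE 0.46), *Fabp1* (2.22, SE 0.47), *Apob* (2.22, SE 0.34) and *Mttp* (1.79, SE 0.27), with adjusted p between 0.000117 and 0.00173. *Cd36* was higher by 0.84 (SE 0.19, adjusted p = 0.0021), which did not pass without TMM scaling (0.47, adjusted p = 0.0542), and *Scarb1* by 0.27 (SE 0.31, adjusted p = 0.532). Groups of *Apoa1*, *Apob*, *Apoc2*, *Apoc3*, *Mttp* and *Fabp2* did not overlap in CPM. Here too, the share of all genes without overlap was not counted. Other cells moved with the day. Smooth muscle markers summed to 1826 to 3282 CPM at 3 days and 647 to 1150 CPM at 7 days in control mice, leukocyte markers to 1093 to 3129 CPM and 539 to 1294 CPM, and the enterocyte markers to 788 to 6936 CPM and 8770 to 13350 CPM. Time after tamoxifen cannot be told apart from any batch that went with it.

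Knockout mice differed between the days in 4 of the 10 genes. Between 3 and 7 days *Fabp2* fell by 2.96 (SE 0.39, adjusted p = 2.1e-05), *Apoc3* by 2.87 (SE 0.58, adjusted p = 0.00116) and *Apoa1* by 2.54 (SE 0.55, adjusted p = 0.00179) on the log2 scale, while *Cd36* was higher by 0.67 (SE 0.18, adjusted p = 0.00886). These 3 falls and 1 rise stand beside 20.2% of all genes called lower, 16.7% called higher and 36.9% called in all. *Cd36* did not pass without TMM scaling (0.46, adjusted p = 0.0652). The other 6 genes did not pass, with log2 differences between -0.84 (*Apoa4*) and 0.94 (*Apoc2*), and *Apoa4* passed without the stomach-rich knockout replicate 1 of day 3 (-1.06, adjusted p = 0.0429). In the order of the 4 group means, the knockout mice of day 7 were the lowest group for *Apoa1*, *Apoc3* and *Fabp2*, and the control mice of day 7 were the highest group for all of the 10 genes but *Scarb1*. For *Apoa4*, *Apoc2*, *Fabp1*, *Apob* and *Mttp* the controls of day 3 were the lowest group, with *Apoc2* in the knockout mice of day 7 above every control mouse of day 3. The group means of *Cd36* lay between 26.02 ± 7.72 CPM (SD, n = 7) in knockout mice of day 3 and 44.5 ± 12.2 CPM (SD, n = 6) in control mice of day 7, and *Scarb1* lay between 23.5 ± 7.22 and 34.3 ± 9.46 CPM (SD, n = 7) in all groups, with its neighbouring groups overlapping throughout.

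Ratios of 2 genes within a library do not depend on the scaling of the library. Of the 4 ratios tested at each day, 2 differed between the genotypes at 3 days and 3 at 7 days. The ratio of *Fabp2* to *Fabp1* counts lay between 1.28 and 1.56 in the 7 control mice of day 3 (median 1.40) and between 0.320 and 1.07 in the 7 knockout mice (median 0.469), without overlap. The difference in the mean log2 ratio was -1.44 (p = 0.000583 by an exact permutation test, two-sided, which is the lowest that 3432 permutations can give, and adjusted p = 0.00373 over 8 tests). At 7 days the ratio was 1.33 to 2.02 in control mice (median 1.57) and 0.0433 to 0.0896 in knockout mice (median 0.0629), a log2 difference of -4.71 (exact permutation p = 0.00216, the smallest of 924 permutations, adjusted p = 0.00373). The stomach-rich knockout replicate 1 of day 3 had the highest ratio of its group. Without the stomach-rich libraries the difference was -1.63 at 3 days and -4.67 at 7 days (exact permutation p = 0.00216 and adjusted p = 0.00346 at either day).

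The ratio of *Apoa1* to *Apoa4* moved in the same sense. At 3 days it lay between 2.82 and 5.51 in control mice (median 5.10) and between 0.714 and 4.71 in knockout mice (median 1.605), a log2 difference of -1.48 (exact permutation p = 0.00233, adjusted p = 0.00373). The ranges overlapped only through the stomach-rich knockout library, and without the stomach-rich libraries the difference was -1.70. At 7 days it was 2.16 to 4.87 (median 2.44) against 0.283 to 0.413 (median 0.36), a log2 difference of -2.99 (exact permutation p = 0.00216, adjusted p = 0.00373). Adding the counts of the genes that overlap *Apoa4* to its own gave -1.49 at 3 days and -3.01 at 7 days.

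For *Apoa1* and *Apob*, no difference in the ratio was detected at 3 days (log2 difference -0.11, exact permutation p = 0.748), while at 7 days it was 3.21 to 5.87 in control mice and 0.181 to 0.488 in knockout mice (log2 difference -3.72, exact permutation p = 0.00216, adjusted p = 0.00373). For *Apob* and *Mttp*, the scaffold and the protein that loads it, no difference in the ratio was detected at either day. At 3 days the ratio lay between 0.904 and 1.69 in knockout mice and between 0.974 and 1.68 in control mice, and at 7 days between 1.37 and 1.97 against 1.56 and 1.91. The log2 differences were 0.07 (exact permutation p = 0.64) and -0.04 (exact permutation p = 0.669). The ratio of *Apoc2* to *Apoc3*, added after the data had been seen and not tested, lay between 1.17 and 2.61 in knockout and between 0.605 and 1.18 in control mice at 3 days. At 7 days it lay between 13.5 and 33.0 against 0.572 to 1.09.

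**Figure D4:**
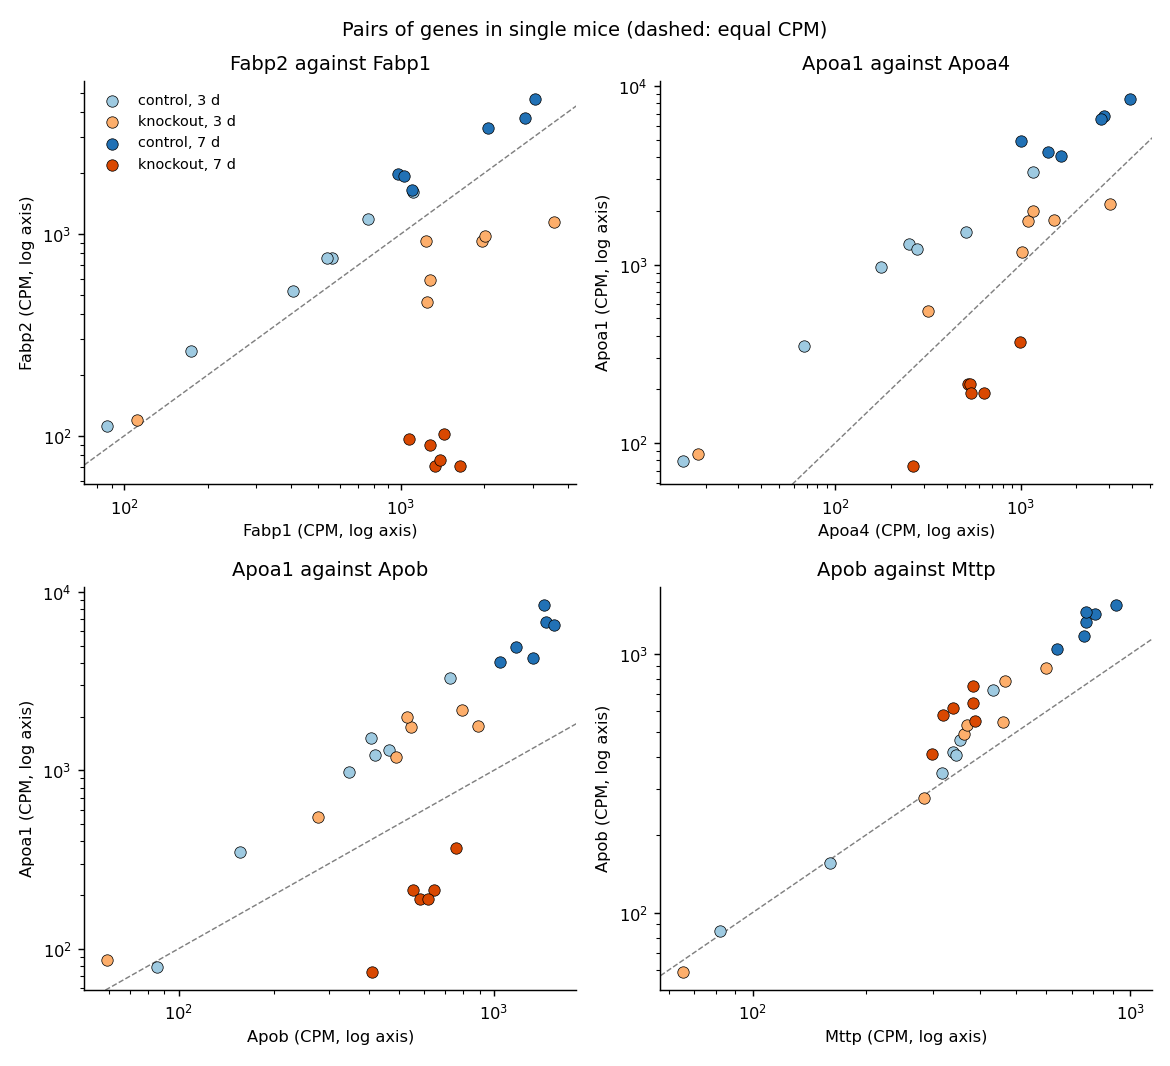
Pairs of genes in single mice, in CPM on log axes, by genotype and day (each point is 1 mouse, dashed line: equal CPM). In the panels of *Fabp2* against *Fabp1* and *Apoa1* against *Apoa4*, knockout mice of day 3 lie to the right of the control mice with like *Fabp2* or *Apoa1*, and knockout mice of day 7 lie far below, while in the panel of *Apob* against *Mttp* the 4 groups lie along a common diagonal.

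Between mice of 1 group, the apolipoproteins, *Mttp* and the fatty acid binding proteins rose and fell together at 3 days. Over the 28 pairs of these 8 genes, Pearson's r of log2 CPM lay between 0.949 and 0.997 in the 7 control mice (median 0.984, Spearman's median rho 0.964) and between 0.935 and 0.996 in the 7 knockout mice (median 0.976, median rho 0.893). After adjustment over 180 tests, 28 of 28 pairs passed in control and 27 of 28 in knockout mice by r (two-sided exact permutation test over pairings), and 22 and 19 by rho. The share of pairs of other genes that would pass was not counted at either day, so whether these counts are particular to the 8 genes is not known. Without the 2 mice farthest from the median of the first gene, the median r was 0.955 in control mice and 0.672 in knockout mice. Without the stomach-rich libraries, 26 of 28 pairs passed in the 6 remaining control mice (median r 0.975) and 11 of 28 in the 6 remaining knockout mice (median r 0.882). Fewer pairs can pass with 6 mice than with 7, and the part of the stomach-rich library itself was not tested. The pancreas-rich control replicate 2 was the next lowest control library for each of the 8 genes.

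The same 8 genes followed the absorptive enterocyte markers at 3 days. Against the mean log2 CPM of the 12 markers, r lay between 0.975 and 0.999 in control mice (8 of 8 passed over 160 tests with 4 marker lists) and between 0.953 and 0.988 in knockout mice (7 of 8 passed). By rho, only *Apoa1*, *Apoc2* and *Fabp1* passed in control mice (exact permutation, adjusted p = 0.0212 for each). None passed by rho in knockout mice, where *Mttp* had the lowest adjusted p (exact permutation, 0.108). The share of all genes that would pass against these markers was not counted. Without the 2 mice farthest from the median of the marker score, the median r was 0.968 and 0.657. Against the stomach markers r lay between -0.849 and -0.737 in control mice and between -0.898 and -0.823 in knockout mice, with 0 of 8 past the adjusted threshold in either group. Their part in the correlations between the genes was not tested. *Scarb1* ran against the other genes in control mice of day 3, with r between -0.871 and -0.844 against *Apoa4*, *Apoc3*, *Fabp1* and *Fabp2*, the 4 pairs with *Cd36* or *Scarb1* that passed (exact permutation, adjusted p between 0.0308 and 0.0372). Without the stomach-rich library 0 of these pairs passed, and no pair had r below -0.729.

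At 7 days, 3 of 28 pairs passed in the 6 knockout mice and 6 of 28 in the 6 control mice. Over the 28 pairs in knockout mice, r lay between -0.481 and 0.975 (median 0.633, median rho 0.343), and 0 pairs passed by rho, while 9 had an unadjusted exact permutation p under 0.05. The pairs that passed by r were *Apoa1* with *Apob* (r = 0.975, rho = 0.829), *Apoa1* with *Mttp* (r = 0.818, rho = 0.943) and *Apob* with *Apoc2* (r = 0.907, rho = 0.771), with exact permutation p of 0.0153, 0.00694 and 0.0125 and adjusted p of 0.0387, 0.0212 and 0.0336. Without the 2 farthest mice, knockout replicates 1 and 2, r was 0.168 for the first pair, which thus rests on them, and 0.981 and 0.952 for the others. Of the pairs with a receptor, *Apob* with *Cd36* passed (r = 0.850, rho = 0.943, exact permutation p = 0.00833, adjusted p = 0.0246), with r = 0.735 without the same mice. *Fabp1* had r between -0.481 and 0.00766 with the other 7 genes, none of which passed. Against the pancreatic acinar markers, *Fabp1* had r = -0.955 (rho = -0.943, exact permutation p = 0.00278, adjusted p = 0.0296), the only 1 of the correlations with marker lists that passed in this group, and the pancreas-rich knockout replicate 4 had the lowest *Fabp1*. The part of pancreatic tissue in the correlations of *Fabp1* was not tested. Whether the correlations differ between days was not tested.

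**Figure D5:**
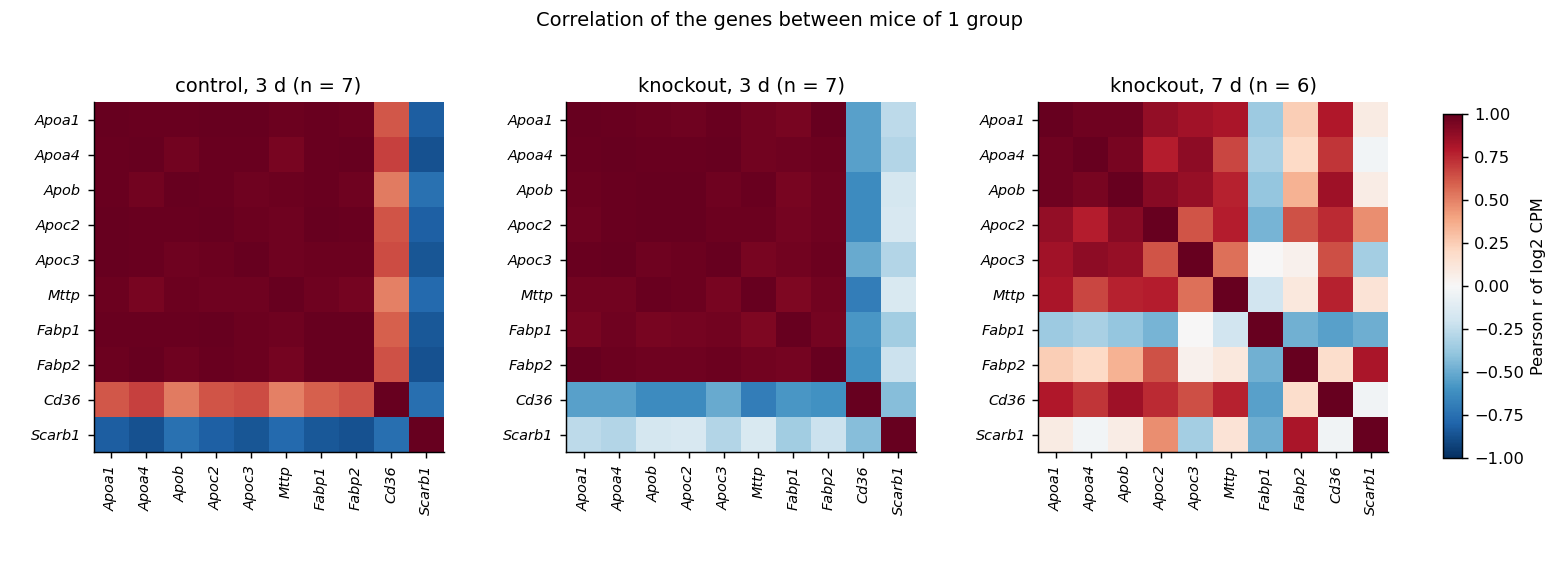
Pearson's r of log2 CPM between the 10 genes over the mice of 1 group (control and knockout mice of day 3, n = 7, and knockout mice of day 7, n = 6), with red for positive and blue for negative r. The block of the first 8 genes is dark red at 3 days, with r of at least 0.935. In knockout mice of day 7 it is broken by the rows of *Fabp1* and *Fabp2*. Control mice of day 7 are not drawn.

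The 6 control mice of day 7 fell into 2 sets of 3 for several genes. An r over them cannot be told apart from the difference between these sets. Over the 28 pairs, r lay between 0.606 and 0.982 (median 0.879), and 0 pairs passed by rho. *Scarb1* ran against *Apoa1* (r = -0.958, exact permutation, adjusted p = 0.0061) and *Apoc3* (r = -0.824, adjusted p = 0.0179), the 2 pairs with a receptor that passed. Replicates 3, 5 and 6 had between 994 and 1000.2 CPM of *Apoc3* and between 2061 and 3035 CPM of *Fabp1*, whereas replicates 1, 2 and 4 had between 448 and 482 CPM and between 978 and 1094 CPM. *Apoa1* and *Fabp2* were also higher in the first set (at least 6503 and 3331 CPM) than in the second (at most 4914 and 1976 CPM), and *Scarb1* was lower (9.75, 16.9 and 29.3 CPM against 44.2, 64.9 and 32.9 CPM). Replicates 1, 2 and 4 included the stomach-rich library and the 2 control libraries of this day with the most pancreatic marker counts. With 3 mice in a set, relations within them cannot be tested.

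The genes whose deviations from the group means were most like those of each gene were sought over all 26 mice, in 9629 genes that averaged 50 counts or more. This r is a description, since the points share libraries and their tissue content. For *Apoa1* they included *Clec2h* and *Slc6a19*, the neutral amino acid transporter of the brush border (r = 0.977 and 0.975). For *Apoa4* they were *Gm44805*, which holds reads of *Apoc2*, *Leap2* and *Tmem236* (0.98, 0.976 and 0.976), and for *Apob* *Gm44805*, *H2-Q2* and *Cyp3a13* (0.983, 0.983 and 0.982). For *Apoc2* they were *Gm10680*, which holds reads of *Apoa4*, *Ceacam18* and *Mogat2*, an enzyme of triglyceride re-esterification (0.981, 0.978 and 0.978). Those of *Apoc3* included *Gm10680* and *Cyp4f14* (0.983 and 0.972), and those of *Mttp* were *Cyp3a13*, the glucose transporter *Slc2a2* and *Cyp2d26* (0.977, 0.977 and 0.975). *Fabp1* was most like *Guca2b*, which encodes uroguanylin, and *Leap2* (0.968 and 0.961), whereas *Fabp2* was most like the fatty acid transporter *Slc27a4*, the cholesterol transporter *Npc1l1* and the brush border protein *Pls1* (0.967, 0.965 and 0.964).

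The 2 receptors had other neighbours. *Scarb1* was most like *Meis2*, *Car2* and *Pdx1*, a transcription factor of pancreas and duodenum (r = 0.903, 0.868 and 0.857), and *Pdx1* led without the 3 stomach-rich libraries (0.924, 23 mice). *Cd36* had no neighbour above *Ndfip1* (0.767), *Xrn1* (0.744) and *Mmrn1* (0.739), the last an endothelial and platelet gene. Without the stomach-rich libraries, the first neighbours were *Slc6a19* for *Apoa1* (0.943), *Apol7a* for *Apoa4* and *Apoc3* (0.959 and 0.971), *Krt20*, a marker of the mature enterocyte, for *Apoc2* (0.975), *Cyp2d26* for *Mttp* (0.959), *Npc1l1* for *Fabp1* (0.917) and *Vil1* for *Fabp2* (0.945).

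Of 68 other genes of lipid handling, 42 of the 64 tested were called at 7 days (9 higher and 33 lower, 65.6%), beside 19.7% of all genes called higher and 18.8% called lower, and 1 of 65 at 3 days. At 7 days the partners of CM assembly, such as *P4hb*, *Sar1b* and *Tm6sf2*, had 2 higher and 9 lower of 14 (median log2 fold change -0.66). The other apolipoproteins had 0 higher and 1 lower of 6 tested (median -0.34), and cholesterol uptake and transfer 1 higher and 6 lower of 10 (median -0.55). Fatty acid uptake and activation was divided, with 2 higher and 4 lower of 10 (median -0.01). *Slc27a2* and *Slc27a4*, fatty acid transporters with acyl-CoA synthetase activity, fell by 4.83 (SE 0.21, adjusted p = 3.8e-12) and fell by 3.28 (SE 0.13, adjusted p = 2.0e-12) on the log2 scale, from 58.9 ± 10.9 to 2.04 ± 0.81 CPM and from 333 ± 50.3 to 33.7 ± 2.80 CPM (control and knockout mice, SD, n = 6). The acyl-CoA synthetases *Acsl4* (log2 fold change 2.98, 91.2 ± 14.6 against 11.9 ± 3.78 CPM, SD, n = 6) and *Acsl3* (2.16, 247 ± 54.6 against 56.5 ± 11.4 CPM) rose.

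Among the other intracellular lipid binding proteins, which share the fold of *Fabp1* and *Fabp2*, 1 was higher and 3 were lower of 8 tested (median -0.68). Of all genes, 19.7% were called higher and 18.8% lower in this comparison of 7 days. *Rbp2*, the retinol binding protein of the enterocyte, fell by 2.72 (SE 0.23, from 776 ± 206 to 116 ± 36.8 CPM) and *Rbp7* fell by 4.51 (SE 0.25, from 27.4 ± 3.59 to 1.16 ± 0.71 CPM), while *Fabp4*, the form of adipocytes and endothelium, rose by 1.51 (SE 0.12, from 32.3 ± 5.46 to 90.2 ± 13.6 CPM). In the same comparison, 2 of 4 adipocyte and 6 of 7 endothelial markers tested were higher, and their part in the *Fabp4* value was not tested. At 3 days *Rbp7* was the 1 gene called of 65, a share of 1.54% beside 1.43% of all genes (log2 fold change -0.79, SE 0.18, adjusted p = 0.0384, 13.96 ± 3.51 against 26.01 ± 6.09 CPM, SD, n = 7).

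Transcription factors known to act on these genes had 3 higher and 10 lower of 16 at 7 days (median -0.76), beside 19.7% of all genes called higher and 18.8% called lower. *Hnf4g* fell by 1.61 (SE 0.16, from 123 ± 22.9 to 39.7 ± 7.72 CPM) and *Ppara*, the fatty acid receptor that drives fatty acid binding and oxidation genes, by 2.42 (SE 0.18, from 88.3 ± 17.7 to 16.2 ± 3.90 CPM). *Hnf4a* (-0.23, SE 0.11, adjusted p = 0.112, 219.8 ± 29.2 against 262 ± 19.1 CPM) and *Creb3l3* (-0.13, SE 0.12, adjusted p = 0.433, 297 ± 28.5 against 329.6 ± 42.4 CPM) did not pass. *Nr1h4*, the bile acid receptor, rose by 1.22 (SE 0.10, from 15.5 ± 2.02 to 35.4 ± 1.97 CPM, SD, n = 6). At 3 days these factors had 0 of 16 called, beside 1.43% of all genes, with *Hnf4a* at -0.01, *Hnf4g* at 0.21, *Ppara* at -0.28 and *Creb3l3* at 0.68 in log2 fold change.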

How the data were processed

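RNA from proximal SI of 26 mice had been made into 3′ end libraries (QuantSeq). Per the labels and the study's methods, the authors trimmed the reads with cutadapt 2.10, aligned them to GRCm38 (mm10) and counted them per gene with featureCounts 2.0.1, dividing reads between overlapping genes. The submitters' processing notes also name Subread and R 4.0.0. The deposited values are such estimated counts, of which 95.01% are whole numbers, and they were rounded here. The 92 spike-in entries held 0 counts.

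Here, genes at 0 in most libraries of either group were left out, as in the study. Counts were scaled by TMM and tested in edgeR 4.0.16 (quasi-likelihood, R 4.3.3), with Benjamini-Hochberg adjustment over all genes tested and a threshold of 0.05. Each comparison was fitted on its own groups and the interaction on all 26 libraries. Ratios (0.5 counts added) and correlations (log2 CPM with TMM factors and a prior count of 2) were tested by exact permutation. The permutation values were computed with numpy 2.4.6, and scipy 1.17.1 gave the ranks for rho. No mouse was dropped in the main analysis, and no 2 libraries of a group held identical values. Alternatives were DESeq2 1.42.0, its size factors, other filters, tissue scores as covariates, a replicate block, 1 joint fit and leaving out each mouse. Alternatives without scaling, without stomach-rich or pancreas-rich libraries and with overlapping genes added were chosen after seeing the data. The tests were also run on simulated data.

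All 10 genes are named. Of the other lipid genes, up to 4 with the largest rise and fall among those that passed and averaged 50 counts or more are named, with *Hnf4a*, *Hnf4g*, *Creb3l3* and *Ppara*, as are the 3 genes most like each of the 10. The targeted gene and some of these are not reported here. The genes and lists were chosen with earlier results of these data known.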

Additional observations from a re-analysis of the deposited data

Results flagged for a closer look

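In the knockout group of day 3, the lowest mouse stood apart from the others for *Mttp* (65.4 CPM) and for *Fabp1* (111 CPM). Both values belong to the stomach-rich replicate 1. Of 56 groups of mice examined in this way, 2 held such a value, where chance alone gives about 2.8.

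The knockout effect differed between 3 and 7 days, by the interaction term of edgeR, for 7 genes. The change in log2 units was -5.06 for *Apoa1*, -3.83 for *Apoa4*, -1.74 for *Apob*, -5.82 for *Apoc3*, -1.602 for *Mttp*, -2.21 for *Fabp1* and -5.21 for *Fabp2*.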

How the results depend on the processing

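The 6 genes called at 7 days, the 9 called between days in control mice and the 5 called ratios had the same direction under every alternative run. The changes in counts of calls and in sign are given here, and the cause was not tested. At 3 days, 2 genes passed with all 26 libraries in 1 fit, 2 without the stomach-rich libraries and 1 without the stomach-rich and pancreas-rich libraries. Leaving out each mouse in turn gave between 0 and 2 genes at 3 days (2 without knockout replicate 1), between 5 and 8 for the interaction, between 4 and 5 in knockout mice across days and between 57 and 78 of the 180 correlations, of which 71 passed with all mice and 45 by Spearman's rho. Whether replicate numbers pair the mice is not known. Deviations from the group mean had r between -0.410 and 0.603 in same-numbered knockout and control mice of a day, which cannot exclude a pairing. The best match had the same number for knockout replicates 4 and 6 of day 3 and 3 and 4 of day 7, and another number for the rest. With the number as a replicate block, 4 genes passed the interaction, and 0 ratios passed, since the 5 ratios called in the main analysis then had an adjusted p of 0.05.

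With tissue scores as covariates, the log2 values that changed sign were -0.44 (*Apoa1*), -0.048 (*Apoc3*) and -0.40 (*Fabp2*) at 3 days, 0.37 (*Scarb1*) at 7 days, and -0.22 (*Apob*) and -0.42 (*Mttp*) in knockout mice across days. Without scaling they were -0.021 (*Fabp2*, 3 days), -0.056 (*Scarb1*, control mice across days) and -0.084 (*Mttp*, knockout mice across days). Without the stomach-rich libraries they were 0.0058 (*Scarb1*, 7 days) and -0.11 (*Mttp*, knockout mice across days), and with the pancreas-rich ones also left out -0.055 (*Apoa1*) and -0.17 (*Fabp2*) at 3 days and -0.0052 (*Mttp*, knockout mice across days). *Fabp1* in knockout mice across days was 0.18 with the replicate block. None of these values passed the test in the main analysis. The covariates also brought *Apoa4* in knockout mice across days (-1.85, adjusted p = 0.00885), *Scarb1* in control mice across days (0.46, adjusted p = 0.033) and *Apoc2* in the interaction (-2.21, adjusted p = 0.0289) past the threshold. Leaving out each mouse moved *Fabp2* at 3 days between -0.057 and 0.42, *Scarb1* at 7 days between -0.44 and 0.0058, and in the interaction *Cd36* between -0.19 and 0.035 and *Scarb1* between -0.0034 and 0.46. Across days it moved *Scarb1* in control mice between -0.0198 and 0.45, and in knockout mice *Mttp* between -0.11 and 0.32 and *Fabp1* between -0.30 and 0.22. It moved the ratio of *Apoa1* to *Apob* at 3 days between -0.36 and 0.023 and that of *Apob* to *Mttp* at 7 days between -0.090 and 0.015.

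Of all genes tested at 3 days, 297 were called, against 769 by DESeq2, 99 with the replicate block, 808 with all libraries in 1 fit, 774 without the stomach-rich libraries and between 171 and 779 without 1 mouse. Without scaling, the median log2 value of all genes was -0.14 at 3 days, -0.41 across days in control mice and -0.35 in knockout mice. Genes called higher and lower were then 125 and 115 at 3 days (230 and 67 with TMM), 1977 and 7372 across days in control mice (4077 and 3364) and 2257 and 5854 in knockout mice (3404 and 4105). The 10 genes had at least 22 counts in every library.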
